A study of Arabidopsis thaliana with 8 samples.

Results

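The transcript response to 200 mM NaCl was measured in imbibed Arabidopsis thaliana seeds of the serk1-1 mutant, which carries a mutant allele of the receptor kinase gene SERK1 in the Col-0 ecotype. Of the 8 RNA-seq libraries of the study, 4 bear on this response: 2 of serk1-1 seeds kept for 24 h in liquid MS medium without added salt (control) and 2 of serk1-1 seeds kept for 24 h in the same medium with 200 mM NaCl. The other 4 libraries were made from Col-0 wild-type seeds in the same pair of media and serve for comparison. Genes were included when FPKM (fragment counts per transcript length and library size) was at least 1 in both libraries of either serk1-1 group, which left 13933 of the 33279 genes in the table. Of these, 13182 passed in both serk1-1 groups, 391 through the control group alone and 360 through the NaCl group alone. For genes that passed through 1 group alone, the filter favours a higher value in that group, so their direction is partly set by it. The rule is a level threshold, with 173 genes just inside it (1 to 1.1 FPKM in the lower library of the higher group) and 214 just outside (0.9 to under 1 FPKM).

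A dry Arabidopsis seed holds an embryo inside a thin layer of endosperm and a dead coat, together with stored protein, oil and transcripts left over from maturation. Abscisic acid (ABA) maintains the maturation state through the transcription factors ABI3, ABI4 and ABI5, which drive genes for storage proteins, oil body proteins and LEA (late embryogenesis abundant) proteins. Gibberellin promotes germination, in which cell walls loosen and reserves are broken down. High salt limits water uptake, loads the tissue with sodium and delays germination, and the SOS proteins (the calcium sensor SOS3, the kinase SOS2 and the sodium/proton antiporter SOS1) export sodium from plant cells. SERK1 belongs to a small family of co-receptor kinases that also holds SERK2 and BAK1, the brassinosteroid co-receptor.

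SERK1 itself was listed at 1.53 and 1.40 FPKM in the serk1-1 control libraries and at 1.12 and 1.05 FPKM with NaCl, against 1.06 to 2.70 FPKM over the 4 Col-0 libraries, so its level overlapped between the genotypes and did not check the genotype label. The titles of the serk1-1 samples also carry the words wild type, and the genotype label was followed. Summed FPKM lay between 885375 and 901215 in the 4 serk1-1 libraries, with 18571 to 19150 genes above 0, and the log2 values of the replicates correlated across genes at r = 0.975 without salt and 0.977 with it. Sequencing depth is unknown because the table gives no counts. The 9 embryo storage markers took 2.84% and 4.56% of all FPKM without salt and 3.69% and 5.85% with it, and replicate 2 was the higher one in both groups. The 4 endosperm markers took 0.204% and 0.154% without salt and 0.225% and 0.222% with it, nearly all of it from EPR1 (1355 to 1989 FPKM, a log2 difference of 0.34). Of the other 3, MAN7 and CP1 had negative differences (-0.995 and -0.75) and NCED6 was under the level threshold. Their part in the results was not tested. The seed coat markers BAN, TT10 and TT12 and the root hair markers COBL9 and EXPA7 were at or near 0.

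Without pairing of the libraries, no gene passed the test. In the limma fit of log2(FPKM + 1) with 4 group means, 0 of 13933 genes (0%) had a Benjamini-Hochberg adjusted p under 0.05, and the smallest adjusted p was 0.0637. At an unadjusted p under 0.05 there were 680 genes (4.88%), of which 256 were higher (1.84%) and 424 lower (3.04%) with NaCl. With 2 libraries against 2, an exact permutation of a single gene's values cannot fall below p = 0.333 (two-sided). Groups did not overlap for 1947 genes that were higher with NaCl (14%) and 3122 that were lower (22.4%). The median difference over all 13933 genes was -0.07 on the log2 scale, and 5710 genes (41%) had a positive one. It was above 1 for 86 genes (0.617%) and below -1 for 139 (0.998%).

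Same-numbered libraries deviated together, as their differences between replicates 1 and 2 correlated across genes at r = 0.763 between the control and the NaCl group of serk1-1. Between groups of different genotype, which the block of all 8 libraries also joins, r was lower, from 0.413 to 0.472. No label says that the number marks a shared batch, and with 2 numbers the pairing rests on these values. Pairing the libraries by replicate number, as a block in the limma fit of all 8 libraries, called 23 genes (0.165%) at an adjusted p under 0.05. Of these, 15 rose with NaCl (0.108%) and 8 fell (0.0574%). Most of the 23 calls were lost with 1 library left out, which also lowers the residual degrees of freedom. The blocked fit then called between 0 and 6 genes. It called 0 without replicate 1 of the serk1-1 control group, without replicate 2 of the serk1-1 NaCl group or without either Col-0 control library. The direction of all 23 was kept in each of these fits. Whether the loss came from the values of the library or from the smaller fit was not tested. The values of the pairs are given by gene below, and "rose" and "fell" refer to the blocked fit throughout.

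**Figure D1:**
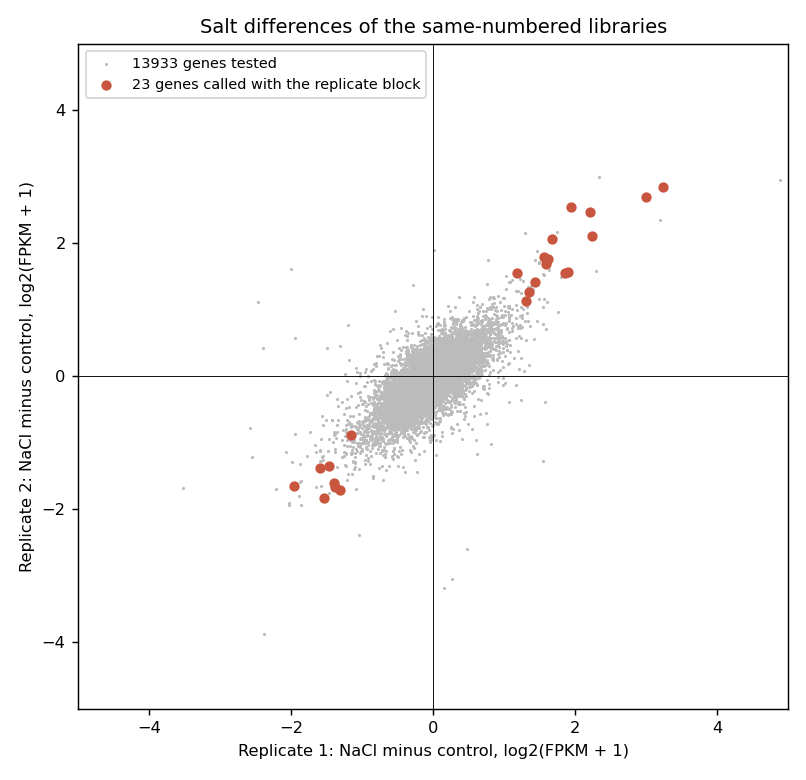
NaCl minus control difference of log2(FPKM + 1) in the replicate 1 libraries (x axis) against the same difference in the replicate 2 libraries (y axis), 1 point per gene for the 13933 genes tested, with the 23 genes called with the replicate block in red. The 2 differences have the same sign for 77.3% of the genes, the 23 called genes lie to the upper right and lower left, and 3 genes with a difference beyond 5 fall outside the axes.

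NRT1.8, NIT2, CYP81D8, HMT3, AT4G33930 and AT4G22530 were among the genes that rose. NRT1.8, a nitrate transporter that takes nitrate out of the xylem sap, was at 4.14 and 2.93 FPKM in the control libraries and at 22.79 and 20.77 FPKM with NaCl, a difference of 2.34 ± 0.34 (SE) on the log2 scale (limma adjusted p = 0.0287 with the block, 0.332 without). NIT2, a nitrilase, was at 11.31 and 5.45 FPKM without salt and at 46.12 and 36.60 FPKM with it (2.24 ± 0.50, blocked adjusted p = 0.0338). Both NaCl libraries lay above both control libraries for each gene, and replicate 1 was the higher one in either group.
CYP81D8, a cytochrome P450 known as a marker of xenobiotic and oxidative stress, was at 5.01 and 3.66 FPKM against 17.33 and 14.84 FPKM with NaCl (1.69 ± 0.23, blocked adjusted p = 0.0224). HMT3, a homocysteine methyltransferase of methionine synthesis, was at 2.04 and 1.84 FPKM against 8.10 and 8.12 FPKM (1.63 ± 0.24, blocked adjusted p = 0.0473). The replicates of these 2 genes were close together, and the groups lay well apart. AT4G33930, a cupredoxin family gene, and AT4G22530, a methyltransferase family gene, rose by 2.17 ± 0.35 and 1.42 ± 0.37 on the log2 scale. AT4G33930 was at 1.48 and 0.66 FPKM without salt and at 10.61 and 6.15 FPKM with it. It met the level threshold through the NaCl group alone, so the filter favoured a rise.

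ABCG31, GASA2, AT3G22490, AT1G03890 and ATS3 also rose. ABCG31, which exports ABA from the endosperm, was at 1.08 and 1.36 FPKM in the control libraries and at 6.49 and 5.91 FPKM with NaCl (1.70 ± 0.23, blocked adjusted p = 0.0390). GASA2, a gibberellin-regulated small peptide gene, was at 29.63 and 30.43 FPKM against 89.45 and 107.57 FPKM (1.68 ± 0.23, blocked adjusted p = 0.0260). AT3G22490, annotated as a seed maturation protein, was at 27.87 and 26.57 FPKM against 106.53 and 80.57 FPKM (1.73 ± 0.26, blocked adjusted p = 0.0338). In all 3, the replicates within the control group differed little and the groups lay well apart.
AT1G03890, a cupin family storage protein gene, differed between replicates nearly as much as between groups, with 8.18 and 23.59 FPKM without salt and 28.23 and 101.59 FPKM with it (1.87 ± 0.73, adjusted p = 0.0490 with the block and 0.999 without). ATS3, an embryo-specific protein gene named here after its values were seen, was at 23.18 and 30.20 FPKM against 60.53 and 74.36 FPKM (1.31 ± 0.31, blocked adjusted p = 0.0473).

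DIN1 and AT3G15450 belong to the genes that plants switch on in darkness and sugar starvation. DIN1 was at 34.28 and 49.56 FPKM in the control libraries and at 85.75 and 109.62 FPKM with NaCl (1.21 ± 0.32, blocked adjusted p = 0.0390). AT3G15450 was at 83.86 and 54.49 FPKM against 190.94 and 162.37 FPKM (1.37 ± 0.27, blocked adjusted p = 0.0490). For each, the lowest NaCl value exceeded the highest control value.
The other 2 genes that rose were listed at 0 in both control libraries. AT4G30097, of unknown function, was at 8.41 and 6.22 FPKM with NaCl (adjusted p = 0.0140 with the block and 0.0637 without, the smallest of all genes), and AT3G06895, annotated as similar to the syntaxin KNOLLE, was at 6.98 and 5.50 FPKM (blocked adjusted p = 0.0390). A listed 0 can be a failed estimate in a table of FPKM, so no fold is given. Both genes met the level threshold through the NaCl group alone, so the filter favoured a rise. AT4G30097, AT3G06895, NRT1.8, AT3G22490, AT4G22530 and AT3G15450 overlap an annotated neighbour, and without strand information the reads of the pair cannot be told apart.

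XTH24, XTH5, FSD1, HAT3 and WRKY7 were among the 8 genes that fell. XTH24 and XTH5 encode xyloglucan endotransglucosylase/hydrolases, which cut and rejoin the xyloglucan chains of growing walls, and XTH5 alone is on the cell wall loosening list. XTH24 was at 6.12 and 6.55 FPKM in the control libraries and at 0.82 and 1.40 FPKM with NaCl (-1.81 ± 0.28, blocked adjusted p = 0.0490), and XTH5 was at 27.13 and 16.31 FPKM against 9.76 and 4.48 FPKM (-1.52 ± 0.50, blocked adjusted p = 0.0390). FSD1, an iron superoxide dismutase, was at 5.14 and 8.44 FPKM against 1.11 and 1.66 FPKM (-1.68 ± 0.28, blocked adjusted p = 0.0473). In these 3 genes, every NaCl value was below every control value. XTH24 met the level threshold through the control group alone, so the filter favoured a fall.
The homeodomain-leucine zipper gene HAT3 was at 18.85 and 11.10 FPKM against 5.57 and 3.64 FPKM (-1.49 ± 0.42, blocked adjusted p = 0.0390). WRKY7, a transcription factor gene, was at 3.58 and 4.56 FPKM against 0.65 and 1.19 FPKM (-1.41 ± 0.32, blocked adjusted p = 0.0490). Groups did not overlap for either regulator, but WRKY7 met the level threshold through the control group alone, so the filter favoured a fall. AT1G59660 (a nucleoporin gene), AT2G24280 and AT1G01300 (an aspartyl protease gene) fell by 1.5, 1.51 and 1.02 on the log2 scale (SE 0.73, 0.99 and 0.62), and the values of AT2G24280 and AT1G01300 overlapped between groups, with the replicates far apart. AT2G24280, for instance, was at 48.88 and 15.43 FPKM without salt and at 19.09 and 4.03 FPKM with it. Scaling the libraries by the median of ratios, which moved the median of all genes from -0.07 to 0.01, left 14 of the 23 calls with the block, among them HAT3 alone of the 8 genes that fell.

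**Figure D2:**
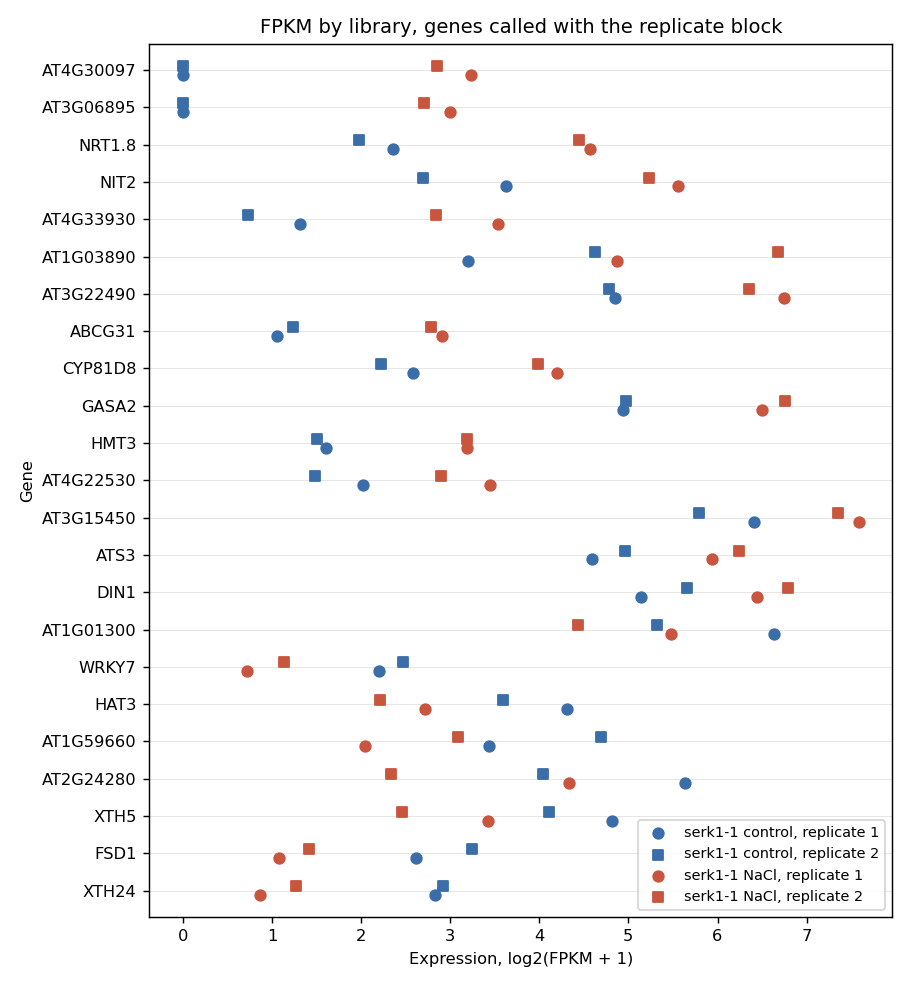
log2(FPKM + 1) of the 23 genes called with the replicate block (y axis) in each of the 4 serk1-1 libraries, with control in blue, NaCl in red, circles for replicate 1 and squares for replicate 2. The NaCl points lie apart from the control points in 21 of the 23 genes, and AT1G01300 and AT2G24280 are the exceptions.

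Beyond the called genes, the largest differences between groups that did not overlap involved genes listed at or near 0 in some library. MT1A, a metallothionein, was at 0 and 12.86 FPKM in the control libraries and at 28.36 and 106.73 FPKM with NaCl, and SAMDC, an S-adenosylmethionine decarboxylase of polyamine synthesis, was at 0.02 and 1.89 FPKM against 4.14 and 22.01 FPKM. Neither passed the test with the block (adjusted p = 0.375 and 0.0924), and replicate 2 was several times higher than replicate 1 in either group. MT1A and SAMDC met the level threshold through the NaCl group alone. Among genes with lower values, EXPA2, an expansin of the endosperm of germinating seeds, was at 89.10 and 61.45 FPKM against 21.08 and 15.64 FPKM (-1.97 ± 0.58, blocked adjusted p = 0.0708), and PMEPCRA, a pectin methylesterase, at 48.58 and 27.79 FPKM against 11.16 and 6.50 FPKM (-1.98 ± 0.56, blocked adjusted p = 0.155). SBP3, a selenium-binding protein gene, was at 5.03 and 5.58 FPKM against 0.66 and 0.73 FPKM (-1.89 ± 0.35, blocked adjusted p = 0.0850). It met the level threshold through the control group alone.
AT2G01021, a ribosomal DNA locus, was at 7589 and 11965 FPKM without salt and at 2826 and 0 FPKM with it, and AT2G40205, a gene for the ribosomal protein L41, at 428 and 289 against 161 and 0 FPKM. In both, which met the level threshold through the control group alone, the listed 0 belongs to replicate 2 of the NaCl group. Without replicate 1 of that group these 2 genes alone passed the unblocked test, on that lone 0. Of all genes tested, 5 were listed at 0 in both control libraries with at least 1 FPKM in both NaCl libraries, and 3 the other way round.

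None of the 5 most abundant transcripts passed either test. CRA1, a 12S cruciferin storage protein gene, was at 14593 and 27896 FPKM in the control libraries and at 17144 and 31388 FPKM with NaCl, so that the replicates lay further apart than the groups. LCR67, a small cysteine-rich protein gene, was at 20762 and 28365 FPKM against 30195 and 25954 FPKM. ICL, the isocitrate lyase of the glyoxylate cycle, was at 12534 and 15465 FPKM against 12775 and 16368 FPKM (0.05 ± 0.59). AT4G27450 and AT1G68250 ranged over the 4 libraries from 8651 to 13832 FPKM and from 8223 to 13216 FPKM.

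Among the gene lists, those of seed maturation products had the most positive medians. Of 24 LEA genes tested (of 26), which encode proteins that protect dry tissue, 23 had a positive difference, the median was 0.73 on the log2 scale, and 10 were higher and 1 lower at an unadjusted p under 0.05. The 9 storage protein genes were all positive with a median of 0.60 (3 higher at an unadjusted p under 0.05), and so were the 7 oil body genes tested of 8, with a median of 0.63 (2 higher). Over all genes tested, 41% were positive, and 1.84% were higher and 3.04% lower at an unadjusted p under 0.05. Groups did not overlap for 18 of 24 LEA, 5 of 9 storage and 6 of 7 oil body genes that were higher with NaCl, against 14% of all genes tested. AT1G03890 was the sole gene of these 3 lists called with the block, and none was called without it. With other scalings or 1 library left out, 21 to 23 LEA, 8 to 9 storage and 6 to 7 oil body genes stayed positive.
The LEA genes took 3.08% and 3.70% of all FPKM in the control libraries and 5.35% and 5.10% with NaCl. For oil body genes the shares were 0.828% and 0.969% against 1.34% and 1.59%, and for storage protein genes 2.65% and 4.62% against 3.67% and 6.14%. The LEA and oil body shares did not overlap between groups, whereas the storage shares did, with replicate 2 the higher one in both groups. In whole seeds, a larger part of cells that hold these transcripts and more transcript per cell cannot be told apart. The albumin (SESA) and cruciferin genes have near-identical copies, which makes their single values uncertain.

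**Figure D3:**
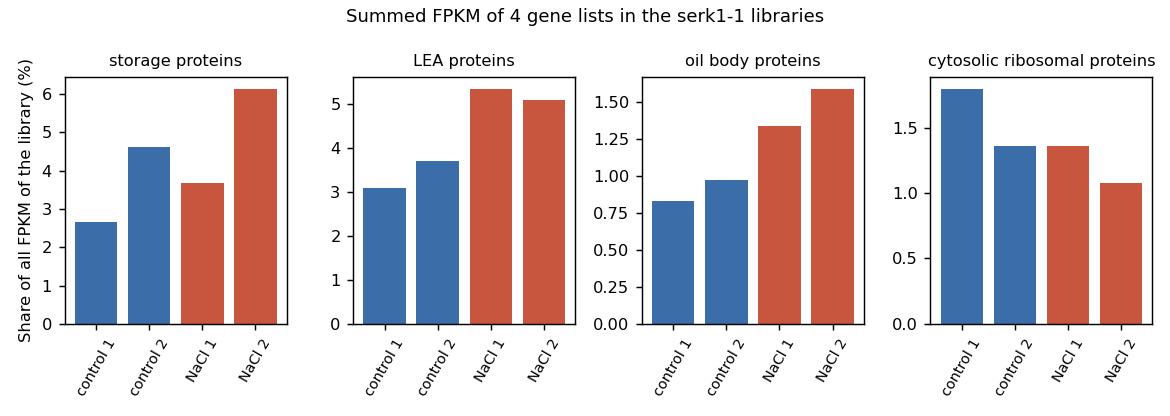
Summed FPKM of the storage protein, LEA, oil body and cytosolic ribosomal protein lists as a percentage of all FPKM, 1 bar per serk1-1 library, control in blue and NaCl in red, each panel with its own y axis from 0. LEA and oil body bars with NaCl stand above both control bars, and replicate 2 has the higher storage bar in both groups (4.62% and 6.14%).

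Several individual maturation genes were separated by group. SESA5, a 2S albumin gene, was at 3167 and 5707 FPKM in the control libraries and at 7373 and 10731 FPKM with NaCl (1.06 ± 0.51), and SESA2 at 224 and 249 against 360 and 534 FPKM (0.89 ± 0.24, unadjusted p = 0.00648). CLO1, the oil body caleosin, was at 255 and 180 against 456 and 409 FPKM (1.01 ± 0.27), and the oleosin gene OLEO2 at 1199 and 1299 against 2104 and 2133 FPKM (0.76 ± 0.28). The groups of these 4 genes did not overlap, and all missed the adjusted threshold of limma with and without the block.
RAB18, an ABA-responsive dehydrin, was at 5217 and 6900 FPKM against 12104 and 11421 FPKM (0.97 ± 0.50, blocked adjusted p = 0.182). AT3G15670, a LEA gene, was at 396 and 323 against 1165 and 727 FPKM (1.36 ± 0.29), and the dehydrin LTI30 at 38.89 and 14.71 against 116.35 and 44.34 FPKM (1.54 ± 0.56). EM6, a LEA protein that marks late maturation, overlapped between groups, with 4827 and 7438 against 6411 and 8966 FPKM (0.34 ± 0.44), a difference that was negative after quantile normalization. The LEA gene with the opposite sign, SAG21, named after its values were seen, was at 602 and 699 FPKM without salt and at 337 and 352 FPKM with it (-0.91 ± 0.23, unadjusted p = 0.00485).

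A pair of short motifs is best known from seed maturation promoters, the core of the ABA response element bound by ABI5-type factors (ACGTG) and the core of the RY element bound by ABI3-type factors (CATGCA). Both were searched on both strands of the 250 bases before the RefSeq gene start (TAIR10.1 assembly), with overlapping matches counted. The ACGTG core occurred in 22.9% of all 27443 protein-coding promoters, and in 20 of 24 LEA, 6 of 9 storage and 4 of 7 oil body promoters. The CATGCA core occurred in 8.43% of all promoters, and in 6 LEA, 8 storage and 7 oil body promoters. Some of the genes named above lack one or both in this window, and LTI30 has neither. Of the 15 genes that rose, 5 had the first and 3 the second. Of the 8 that fell, 2 had each. The windows of a called maturation gene, a dehydrin, an albumin and GASA2 are shown, all from the minus strand of the chromosome and read towards the gene, since they differ in which core they hold. Capitals mark bases covered by a match to either core.
AT3G22490 (chr3:7970844-7971093): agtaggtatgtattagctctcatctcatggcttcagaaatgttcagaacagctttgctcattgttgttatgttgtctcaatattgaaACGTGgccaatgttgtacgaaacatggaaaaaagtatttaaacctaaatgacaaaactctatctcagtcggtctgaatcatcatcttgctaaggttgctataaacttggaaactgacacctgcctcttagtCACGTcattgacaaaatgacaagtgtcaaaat
RAB18 (chr5:26519448-26519697): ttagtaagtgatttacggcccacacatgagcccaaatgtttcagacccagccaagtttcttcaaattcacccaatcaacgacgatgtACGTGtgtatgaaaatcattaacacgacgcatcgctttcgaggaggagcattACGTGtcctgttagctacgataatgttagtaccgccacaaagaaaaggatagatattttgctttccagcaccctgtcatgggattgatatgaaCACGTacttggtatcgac
SESA5 (chr5:22239188-22239437): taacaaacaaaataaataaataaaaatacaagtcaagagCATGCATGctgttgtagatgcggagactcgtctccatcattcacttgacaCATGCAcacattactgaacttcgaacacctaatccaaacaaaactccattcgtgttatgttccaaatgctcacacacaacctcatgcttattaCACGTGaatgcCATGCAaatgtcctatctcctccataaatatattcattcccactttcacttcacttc
GASA2 (chr4:6075646-6075895): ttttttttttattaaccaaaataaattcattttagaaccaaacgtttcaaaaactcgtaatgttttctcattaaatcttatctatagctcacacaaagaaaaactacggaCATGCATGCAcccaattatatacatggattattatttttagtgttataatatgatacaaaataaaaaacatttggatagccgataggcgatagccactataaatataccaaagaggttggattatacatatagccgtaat
The windows of AT3G22490 and RAB18 hold 2 and 3 ACGTG matches and no CATGCA, that of GASA2 holds 3 overlapping CATGCA matches and no ACGTG, and that of SESA5 holds both (2 and 4 matches). The 2 ACGTG matches of SESA5 are a single CACGTG read on both strands, and 2 of its 4 CATGCA matches overlap in a single CATGCATG. Those of AT3G22490 and RAB18 are separate. These are matches of letters, with no measurement of binding.

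Regulators of maturation and dormancy showed no such tendency. Of 11 tested (of 15), 5 were positive, none had an unadjusted p under 0.05, and the median was -0.04. ABI3 was at 157 and 124 FPKM in the control libraries and at 140 and 114 FPKM with NaCl (-0.14 ± 0.21), and ABI5 at 83.96 and 63.73 against 97.81 and 74.59 FPKM (0.22 ± 0.52). ABI4 was at 52.73 and 29.16 against 31.96 and 16.33 FPKM (-0.75 ± 0.37), lower in each pair but overlapping between groups. DOG1, a main determinant of seed dormancy, was at 1.11 and 0.54 against 3.23 and 1.21 FPKM (0.76 ± 0.40), and its values did not overlap. DOG1 met the level threshold through the NaCl group alone. HSFA9, a heat stress factor of the maturing seed that is on the heat shock list, was at 1.32 and 2.3 against 4.43 and 6.89 FPKM (1.24 ± 0.32, unadjusted p = 0.00530, blocked adjusted p = 0.125).

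In ABA signalling, no receptor, phosphatase or kinase gene passed the test with or without the block. Of 19 genes for receptors, phosphatases and kinases tested (of 22), 10 were positive and the median was 0.00, with 2 higher and 1 lower at an unadjusted p under 0.05. Over all genes tested, 1.84% were higher and 3.04% lower at that threshold. The receptor gene PYR1 was at 141 and 123 FPKM in the control libraries and at 76.41 and 64.38 FPKM with NaCl (-0.90 ± 0.36, unadjusted p = 0.0401), and PYL4 at 6.54 and 6.61 against 2.17 and 2.02 FPKM (-1.29 ± 0.62). PYL8 was at 69.00 and 92.14 against 45.28 and 47.50 FPKM (-0.77 ± 0.35), and the kinase gene OST1 at 175 and 156 against 83.34 and 95.21 FPKM (-0.88 ± 0.68). All 4 were lower in each pair, with no overlap. In the whole list, 6 genes were lower and 4 higher without overlap, against 22.4% and 14% of all genes tested. The 2 genes that were higher at an unadjusted p under 0.05 are phosphatase genes, named here after their values were seen. ABI2 was at 6.95 and 4.27 against 11.56 and 8.41 FPKM (0.75 ± 0.29, unadjusted p = 0.0338), and HAI1 at 0.46 and 0.31 against 1.00 and 1.06 FPKM (0.55 ± 0.24, unadjusted p = 0.0491). HAI1 only just met the level threshold, and through the NaCl group alone, so the filter favoured its direction.
Of 8 genes of ABA synthesis, breakdown and transport tested (of 17), 7 were positive with a median of 0.39, 3 of them at an unadjusted p under 0.05 (1.84% of all genes tested). These were ABCG31, ABA1 and CYP707A2. ABA1, the zeaxanthin epoxidase of ABA synthesis, was at 76.85 and 66.55 FPKM against 105.75 and 88.52 FPKM (0.43 ± 0.17), and CYP707A2, the ABA 8'-hydroxylase of imbibed seeds, at 1.77 and 2.44 against 4.06 and 3.58 FPKM (0.64 ± 0.23). NCED9, a synthesis gene of seeds, overlapped between groups at 15.19 and 3.54 against 14.59 and 6.66 FPKM (0.35 ± 0.59), and NCED6 was at most 0.55 FPKM and was not tested.
Of 14 genes responsive to ABA or osmotic stress tested (of 25), 6 were positive with a median of -0.01. RAP2.6, an ERF-type factor, was at 0.51 and 0.17 FPKM against 2.81 and 1.82 FPKM (1.3 ± 0.27, unadjusted p = 0.00162, blocked adjusted p = 0.0856). It met the level threshold through the NaCl group alone. DREB2A, a drought-response factor, overlapped between groups at 122 and 64.41 against 168.93 and 96.45 FPKM (0.52 ± 0.42). This list also holds the ACGTG core in 11 of its 14 promoters.

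No gene of sodium and potassium transport passed the test. Of 16 tested (of 19), 6 were positive, the median was -0.05, and none had an unadjusted p under 0.05. SOS1 was at 5.78 and 4.17 FPKM in the control libraries and at 6.36 and 4.98 FPKM with NaCl (0.16 ± 0.25), and SOS2 at 2.76 and 3.13 against 2.45 and 2.26 FPKM (-0.23 ± 0.24). SOS3 was at 4.41 and 3.2 against 6.34 and 4.99 FPKM (0.48 ± 0.30), with no overlap between groups. HKT1, a sodium transporter of the vasculature, was listed at 0 in the 4 serk1-1 libraries, and CBL10, a calcium sensor related to SOS3, was at most 0.20 FPKM. Neither was tested.

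Some gibberellin and wall genes had large negative differences. Of 19 gibberellin genes tested (of 28), 12 were negative, the median was -0.24, and GASA2 alone was called with the block. Negative differences were also the majority over all genes tested (8222 of 13933), near the share in this list. GASA14, a further gibberellin-regulated gene, was at 3.65 and 4.35 FPKM against 1.51 and 1.45 FPKM (-1.01 ± 0.33, unadjusted p = 0.0172), and GASA6 at 10.84 and 3.28 against 2.22 and 0.72 FPKM (-1.60 ± 1.20). GASA6 met the level threshold through the control group alone. GA3OX1, which makes active gibberellin, was at 1.02 and 0.69 against 0.24 and 0.21 FPKM and missed the level threshold, as did GA3OX2 (at most 0.08 FPKM).
Of 12 cell wall loosening genes tested (of 22), 8 were negative, against 8222 of 13933 genes tested. Their median of -0.06 was positive under both other scalings. In the fit without the block it ran from -0.99 without replicate 2 of the control group to 0.37 without replicate 1. Within same-numbered pairs 1 and 2, the median was -0.34 and 0.08. MAN7, a mannanase active in the endosperm, was at 29.70 and 29.64 against 14.47 and 14.30 FPKM (-0.995 ± 0.28, unadjusted p = 0.00842, blocked adjusted p = 0.125). EXPA1 varied more between replicates than between groups (73.45 and 12.17 against 37.98 and 5.17 FPKM). Of 5 cell cycle genes tested (of 14), 3 were positive with a median of 0.08, and none had an unadjusted p under 0.05. Cell cycle transcripts were low, with the cyclin CYCB1;1 at 1.26 to 1.76 FPKM.

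Cytosolic ribosomal protein genes all had negative differences, between -0.54 and -0.07. Their median was -0.41 over 18 of 18 genes, below the all-gene median of -0.07, though none reached an unadjusted p under 0.05. Groups did not overlap in 5 of 18, near the 22.4% of all genes that were lower without overlap. RPS13A was at 1195 and 1235 FPKM in the control libraries and at 874 and 878 FPKM with NaCl (-0.47 ± 0.25), and RPS18A at 780 and 736 against 575 and 504 FPKM (-0.49 ± 0.22). The list's share of all FPKM was 1.80% and 1.36% without salt and 1.36% and 1.08% with it. The median stayed negative in each alternative, from -0.59 to -0.12, with 15 to 18 negative genes, and it was -0.12 without replicate 1 of the control group.

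Sugar starvation genes leaned the other way. Of 9 tested (of 10), 7 were positive with a median of 0.54 (0.23 without replicate 1 of the NaCl group, 0.33 without replicate 2 of the control group and at most 0.43 with any 1 library left out), and 3 were higher at an unadjusted p under 0.05 (1.84% of all genes tested). ASN1, the dark-induced asparagine synthetase, was at 18.90 and 30.34 FPKM in the control libraries and at 59.41 and 67.05 FPKM with NaCl (1.36 ± 0.27, unadjusted p = 0.00118, blocked adjusted p = 0.0903), next to DIN1 and AT3G15450 above. DIN10, a raffinose synthase family gene, went the other way in each pair, at 9.69 and 3.0 against 3.58 and 0.93 FPKM (-1.14 ± 0.59). DIN10 met the level threshold through the control group alone.
Of 5 phosphate starvation genes tested (of 11), 4 were negative with a median of -0.68. PAP17, a purple acid phosphatase, was at 18.31 and 11.31 against 3.14 and 2.80 FPKM (-1.96 ± 0.34, unadjusted p = 5.42e-04, blocked adjusted p = 0.0805), and G3PP1, a glycerol-3-phosphate permease, at 3.42 and 3.84 against 0.46 and 1.01 FPKM (-1.43 ± 0.26, blocked adjusted p = 0.0708). The NaCl values of both genes were well under the control values, and G3PP1 met the level threshold through the control group alone.
Of 7 raffinose and proline genes tested (of 10), 6 were positive with a median of 0.37. ERD5, the proline dehydrogenase that breaks proline down, was at 14.67 and 15.20 FPKM against 41.15 and 53.24 FPKM (1.59 ± 0.35, unadjusted p = 0.00245, blocked adjusted p = 0.0654). All 16 oil breakdown genes were tested, 13 were positive, and the median was 0.13. The malate synthase gene MLS was at 1776 and 1652 against 2481 and 2291 FPKM (0.48 ± 0.28), and ACX1, an acyl-CoA oxidase, at 70.27 and 64.54 against 105.40 and 102.03 FPKM (0.62 ± 0.21, unadjusted p = 0.0201).

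Stress lists were mixed. Of 16 oxidative stress and detoxification genes tested (of 21), 9 were positive (median 0.11). CAT3, a catalase, was at 489 and 785 FPKM in the control libraries and at 899 and 1482 FPKM with NaCl (0.90 ± 0.42, blocked adjusted p = 0.0723), in contrast to FSD1. RBOHB, a NADPH oxidase of the germinating seed, was at 2.2 and 1.34 against 0.37 and 0.41 FPKM (-0.98 ± 0.28, unadjusted p = 0.00962). It met the level threshold through the control group alone. Of 15 heat shock genes tested (of 18), 10 were positive with a median of 0.29, which turned to -0.20 (7 positive) without replicate 2 of the control group and was 0.52 without replicate 1. HSP22 and HSP17.6II overlapped between groups, the latter at 11.46 and 41.52 FPKM with NaCl.
Among 6 aquaporins tested (of 11), 4 were positive with a median of 0.38. TIP3;1, the water channel of protein storage vacuoles, was at 1787 and 1810 against 2537 and 2454 FPKM (0.47 ± 0.36), while the plasma membrane aquaporin PIP2;7 was at 133.74 and 136.16 against 73.11 and 74.64 FPKM (-0.86 ± 0.19, unadjusted p = 0.00227, blocked adjusted p = 0.0805). The replicates of PIP2;7 nearly coincided within each group.
Ethylene genes (9 of 12 tested, 4 positive) and photosynthesis genes (9 of 18 tested, 3 positive) had medians of -0.05 and -0.02. ACO1, an ethylene-forming oxidase, was at 11.96 and 6.38 against 2.88 and 3.12 FPKM (-1.29 ± 0.69).

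In the SERK and brassinosteroid list, 10 of 15 genes tested (of 17) were negative with a median of -0.18. Over all genes tested, 8222 of 13933 were negative. DWF4, the rate-limiting hydroxylase of brassinosteroid synthesis, was at 4.84 and 3.69 FPKM in the control libraries and at 2.13 and 1.45 FPKM with NaCl (-0.92 ± 0.36, unadjusted p = 0.0363). BES1, a transcription factor of the brassinosteroid response, was at 7.80 and 6.38 against 4.52 and 3.69 FPKM (-0.66 ± 0.24, unadjusted p = 0.0271). SERK2 was at 4.85 and 3.23 against 3.58 and 2.31 FPKM (-0.35 ± 0.39). BAK1 was at 25.77 and 27.71 against 27.71 and 25.25 FPKM (-0.01 ± 0.20), with a sign that changed with the scaling. SERK1, at the values given above, had a difference of -0.24 ± 0.32. None of these 5 passed the test with or without the block.

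**Figure D4:**
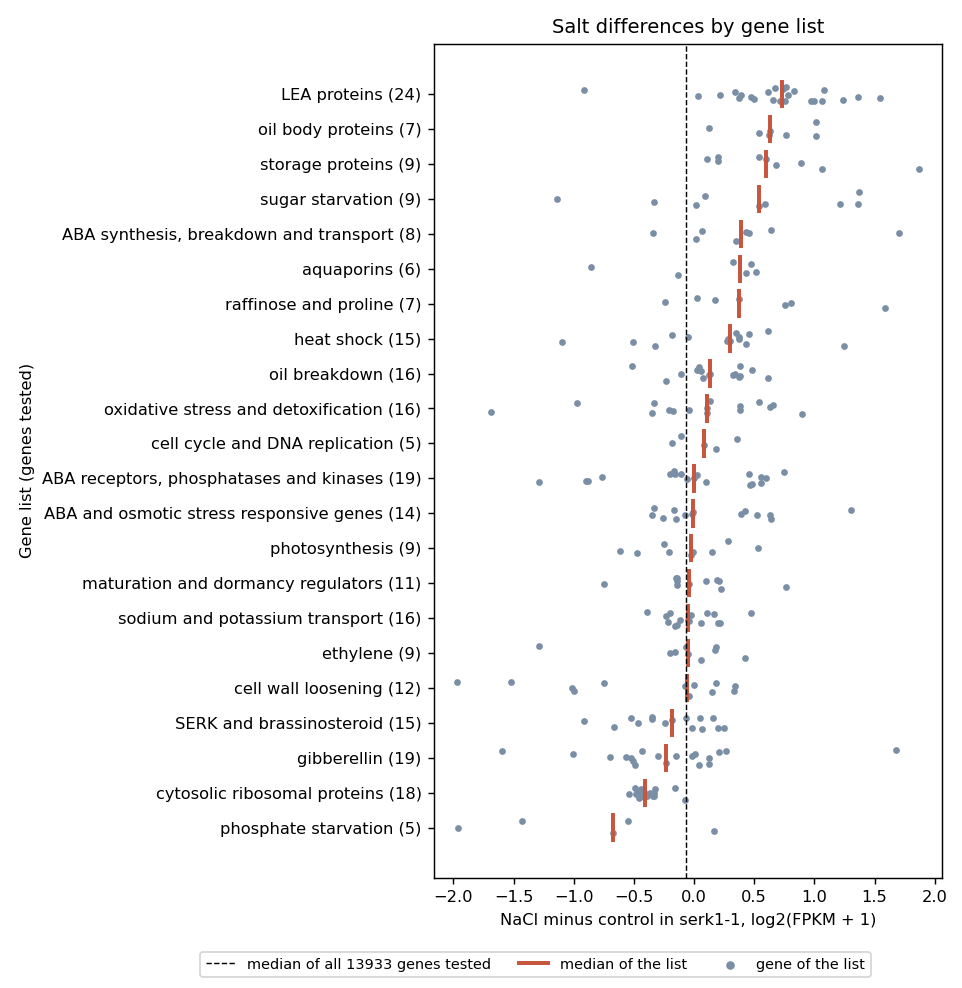
NaCl minus control difference in serk1-1 on the log2(FPKM + 1) scale (x axis) for each tested gene (point) of the 22 gene lists (y axis), with the list median as a red bar and the median of all 13933 genes (-0.07) as a dashed line. The LEA, oil body and storage lists have the highest medians (0.73, 0.63 and 0.60), and the ribosomal protein and phosphate starvation lists the lowest (-0.41 and -0.68).

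Several of these medians moved when 1 serk1-1 library was left out of the fit without the block. Such a fit leaves the replicate numbers unequal between the groups, so a deviation shared by same-numbered libraries enters the difference. Leaving out replicate 1 of the NaCl group or replicate 2 of the control group lowered the median of ABA synthesis, breakdown and transport from 0.39 to 0.11 and 0.14 (4 of 8 positive in each), that of oil breakdown from 0.13 to 0.0099 and 0.0096, and that of gibberellin genes from -0.24 to -0.47 in both cases. Without replicate 2 of the NaCl group or replicate 1 of the control group, the gibberellin median was -0.03 and -0.10 and that of the SERK and brassinosteroid list -0.06 and -0.03. The median of the ABA and osmotic stress responsive genes then became 0.42 and 0.53, and that of the ABA receptors, phosphatases and kinases 0.22 and 0.20. The phosphate starvation median was -1.09 and the raffinose and proline median 0.77 without replicate 2 of the control group. Within same-numbered pairs 1 and 2, the medians were 0.30 and 0.41 for ABA synthesis, breakdown and transport and 0.09 and 0.16 for oil breakdown. They were -0.12 and -0.23 for gibberellin, -0.26 and -0.13 for SERK and brassinosteroid, and 0.02 and 0.08 for ABA and osmotic stress responsive genes. For ABA receptors, phosphatases and kinases they were 0.06 and -0.03, for phosphate starvation -0.98 and -0.57, and for raffinose and proline 0.53 and 0.22.

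The same contrast in Col-0 seeds, which shares no library with the one in serk1-1 but the same fit and replicate block, had the same sign for all 23 genes called in serk1-1 with the block and for 75.0% of all genes tested. Of them, 21 were also called in Col-0 with the block in the same direction, which is 21 of the 1079 genes called there (7.74% of all genes tested). Without the block, 6 genes were called in Col-0 (0.0431%). Because the blocked fit pools the residual spread over both genotypes, calls in the 2 contrasts are not independent. The test of the difference between the 2 salt effects called 0 of 13933 genes in limma without the block (smallest adjusted p = 1.00, 156 genes or 1.12% at an unadjusted p under 0.05) and 0 with it (smallest adjusted p = 0.854, 716 genes or 5.14%). No gene's response was therefore shown to differ between the genotypes in either fit.
Of the 23 genes, 13 had a smaller absolute difference in serk1-1 than in Col-0. For NRT1.8 the 2 differences were 2.34 and 2.33, and for GASA2 1.68 and 1.64. AT3G15450 differed by 1.37 in serk1-1 and by 2.996 in Col-0, where it was at 24.18 and 16.43 FPKM without salt and at 170.94 and 161.48 FPKM with it. The NaCl levels of AT3G15450 were thus close in the 2 genotypes and the control levels were not (difference of the effects -1.63 ± 0.38, adjusted p = 0.854 with the block). AT3G06895, listed at 0 in the serk1-1 control libraries, was between 4.82 and 10.69 FPKM in all 4 Col-0 libraries. CYP707A2 was at 2.64 and 2.44 FPKM in Col-0 without salt and at 13.78 and 12.44 FPKM with it, against at most 4.06 FPKM in serk1-1 (difference of the effects -1.35 ± 0.33, not called in either fit). ASN1 was at 4.85 and 4.46 against 36.79 and 27.22 FPKM in Col-0 (difference of the effects -1.17 ± 0.38, likewise not called).
By list, the median differences in serk1-1 and Col-0 were 0.73 and 1.18 for LEA, 0.60 and 0.84 for storage, 0.54 and 1.28 for sugar starvation, -0.68 and -1.96 for phosphate starvation and -0.41 and -0.35 for ribosomal protein genes, beside -0.07 and 0.04 over all genes tested. For RAB18 the starting levels also differed, at 1362 and 2684 FPKM in the Col-0 control libraries against the 5217 and 6900 FPKM of serk1-1.

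**Figure D5:**
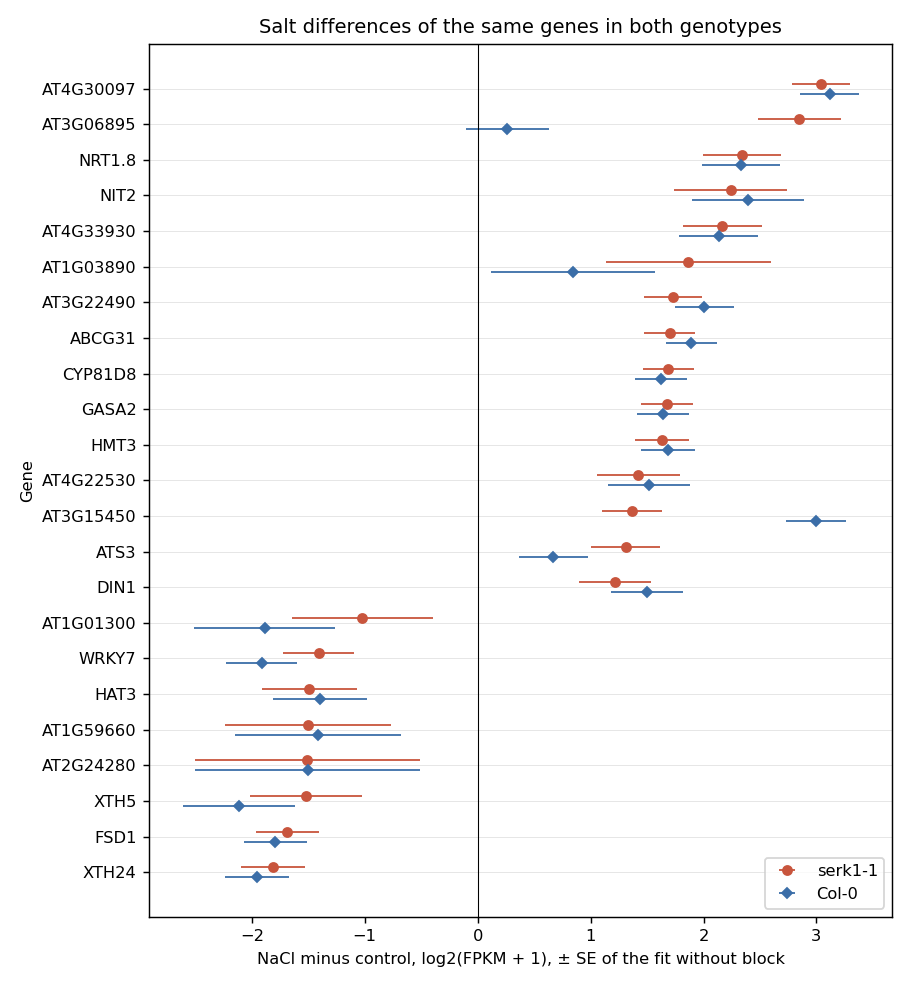
NaCl minus control difference on the log2(FPKM + 1) scale (x axis) of the 23 genes called in serk1-1 with the replicate block (y axis), in serk1-1 (red circles) and Col-0 (blue diamonds), with bars of ± 1 SE of the fit without block. The signs match for all 23 genes, AT3G15450 lies at 1.37 and 2.996, and the size for AT4G30097 and AT3G06895 is set by the pseudocount because serk1-1 control libraries are listed at 0.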

How the data were processed

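Total RNA of seeds imbibed for 24 h was sequenced as paired-end TruSeq libraries, with 2 biological replicates per group, per the labels' protocols. A p-value here sets the group difference against the scatter among those libraries. That scatter is pooled over the 4 groups, Col-0 included, and partly borrowed from other genes. The authors deposited FPKM per gene. Their tools were TopHat2 and Cufflinks 2.1.1 on TAIR10, per the submitters' processing notes. Sources used here name no annotation release, strand option or rule for multiply mapped reads. An FPKM is relative to its library, so abundant transcripts lower the rest. Names and promoters came from RefSeq (TAIR10.1), with 32815 of 33279 genes matched by locus. Promoter coordinates are those of RefSeq, since the table holds none.

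FPKM were put on a log2(FPKM + 1) scale, which understates changes of low genes, and fitted in R 4.3.3 with limma 3.58.1 (4 group means, 4 residual degrees of freedom, trend). The threshold for a call was 0.05 after Benjamini-Hochberg adjustment over 13933 genes. Adjusted p-values in the report come from this fit, or where named from the fit with the replicate number as a block (3 residual degrees of freedom). The SE is that of the fit without the block. The scripts were tested on simulated data. Figures used Python 3.11.15 and matplotlib 3.10.9. The comparison, the 22 gene lists (269 of 367 genes tested) and the tests were chosen with earlier results of these data known. Named genes were those called with or without the block (up to 12 per direction, or the 5 smallest p), up to 8 per direction with the largest difference where groups did not overlap and a serk1-1 group averaged 5 FPKM or more, up to 4 per list with the largest difference, a fixed set of 24 (SERK, SOS, ABI and other genes) and the 5 highest. Alternatives covered the pseudocount, filter, scaling, limma options, block and each library left out.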

Additional observations from a re-analysis of the deposited data

How the results depend on the processing

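Without the replicate block, no gene was called in serk1-1 with a filter of 5 FPKM, a filter over all 8 libraries, robust moderation or a fit of the 4 serk1-1 libraries alone. The count was 2 with a pseudocount of 0.1, 1 with 0.5, 1 with median-of-ratios scaling, 1 with quantile normalization, 1 without the trend and 8 with no filter on low genes, and from 0 to 2 with 1 library left out. The single call in the 0.5, scaling, quantile and trend settings was AT4G30097. The replicate block, whose pairing rests on correlated deviations (r = 0.763 in serk1-1, 0.729 in Col-0 and 0.413 to 0.472 across genotypes) and on no label, gave 23, and 15 with median-of-ratios scaling. With the block in the 4 serk1-1 libraries alone, at 1 residual degree of freedom, it gave 4241. The blocked fit with 1 library left out, added after the data were seen, gave 6 genes without either Col-0 NaCl library, 3 without replicate 1 of serk1-1 NaCl, 2 without replicate 2 of serk1-1 control and 0 otherwise. Calls for the difference between the genotypes numbered 32 with no filter, 0 to 2 with 1 library left out and 0 in the other settings, the block included. The cause was not tested.

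Of 123 named genes, 107 kept their sign in each setting. BAK1 turned to 0.0652 with median-of-ratios scaling, with and without the block, and to 0.0619 with quantile normalization, where EM6 was -0.14. With 1 library left out, the range was -0.31 to 0.0231 for ABI3, -0.0788 to 0.0505 for BAK1, -0.95 to 0.0060 for BZR1, -0.90 to 0.12 for CBL9, -0.27 to 0.67 for CRA1, -0.23 to 0.0200 for CYCB1;1, -0.33 to 0.74 for EEL, -2.34 to 0.32 for EXPA1, -0.0251 to 0.77 for GOLS1, -1.39 to 0.38 for HSP17.6II, -0.57 to 1.27 for NCED9, -0.21 to 0.56 for RNR2A, -1.01 to 0.0520 for RPL23AB, -0.0314 to 0.36 for SOS1 and -0.27 to 0.99 for TSO2. Of the 22 list medians, 13 kept their sign, 6 near 0 changed it with the scaling (maturation regulators, ABA-responsive, ion transport, cell wall, photosynthesis and ethylene) and 3 with a library left out alone (ABA receptors, phosphatases and kinases, cell cycle, and heat shock). Low genes are limited by the pseudocount and by an unknown depth.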
